A study of Mus musculus with 13 samples.

Results

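The cytosolic ribosomal protein genes were taken by name: every gene with a symbol of Rpl or Rps and a digit, or Rpsa, Rplp0, Rplp1 or Rplp2, without the Rps6k kinases and pseudogene symbols, that had at least 3 probe sets assigned to it and to no other gene. Of 15123 genes with that many probe sets on the array, 37 fitted the rule, and they were read by 266 probe sets. A further 16 matching symbols had only 1 or 2 such probe sets, so Rps19, Rps27 and Rpl10a, among others, lay outside the group. Rplp2, Rps6, Rpl11 and Rpl38 were not among the matching symbols and are not analysed here. The name rule also took in Rps19bp1, which codes for a protein that binds Rps19 and is no part of the ribosome.

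The study used mice that express PML-RARA, the fusion protein of acute promyelocytic leukaemia, from the mouse cathepsin G locus (mCG-PR), a locus that is active in early myeloid cells, and their littermates. Marrow of single mice of strain Bl/6 Taconic was sorted into KLS cells (Kit-positive, lineage-negative, Sca-1-positive progenitors, as the abbreviation is usually read) and SLAM cells (the stem-cell-enriched sort named after the SLAM receptors). Total RNA was amplified from 20 ng and hybridised to a 1-colour exon array, 1 mouse per array. The 13 arrays fell into 5 groups: wild-type KLS at 12 or 13 weeks (WT KLS, 4 arrays), mCG-PR N17 KLS at 6 weeks (3 arrays), mCG-PR N17 KLS at 13 weeks (2 arrays), wild-type SLAM at 6 weeks (WT SLAM, 2 arrays) and mCG-PR N17 SLAM at 7 weeks (2 arrays). The labels do not spell out N17. No wild-type KLS array was younger than 12 weeks, so at 6 weeks age and genotype cannot be told apart, and sort and age cannot be told apart in the wild-type comparison of SLAM with KLS. With 2 to 4 arrays in a group, the number of arrays sets the precision of the values.

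The cytosolic ribosome has a small subunit, whose proteins carry Rps symbols and which reads the messenger RNA, and a large subunit, whose proteins carry Rpl symbols and which joins amino acids. Rplp0 and Rplp1 belong to the stalk that recruits translation factors. The messenger RNAs of ribosomal proteins are abundant in growing cells and begin with a run of pyrimidines through which mTORC1 controls their translation. In blood formation these genes are known from Diamond-Blackfan anaemia and the 5q- syndrome, in which a single copy of one of them is lost, and blood stem cells are known for a low rate of protein synthesis.

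The promoters of the 6 members on which the results below turn are shown first, as a description of the sequence around the start site. Each run holds 60 bases before and 20 bases from the first start listed by RefSeq on GRCm38.p6, 5′ to 3′ on the strand of the gene. Capitals mark CGGAAG (the core of ETS-type sites, either strand), AANATGGC (the core of YY1-type sites, either strand), TATAAA (either strand, from 40 to 5 bases before the start) and runs of 8 or more C or T letters lying within 10 bases before to 11 bases from the start.
Rps15a: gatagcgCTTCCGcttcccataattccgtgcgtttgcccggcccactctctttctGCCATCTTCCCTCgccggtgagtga
Rpl31: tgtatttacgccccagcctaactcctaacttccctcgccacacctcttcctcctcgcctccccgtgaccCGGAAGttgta
Rpl22: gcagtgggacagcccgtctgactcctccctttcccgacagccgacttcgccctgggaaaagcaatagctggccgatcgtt
Rpl22l1: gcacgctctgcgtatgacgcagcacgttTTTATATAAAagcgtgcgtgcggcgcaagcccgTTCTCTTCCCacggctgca
Rpl12: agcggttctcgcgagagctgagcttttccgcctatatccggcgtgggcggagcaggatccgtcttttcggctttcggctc
Rps27l: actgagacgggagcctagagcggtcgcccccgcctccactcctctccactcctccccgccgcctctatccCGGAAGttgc

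These windows lie at chr7:118116128-118116207 on the minus strand for Rps15a and on the plus strand at chr1:39367791-39367870 for Rpl31, chr4:152325666-152325745 for Rpl22, chr3:28805448-28805527 for Rpl22l1, chr2:32961652-32961731 for Rpl12 and chr9:66946026-66946105 for Rps27l. In Rps15a the YY1-type match and the pyrimidine run overlap. RefSeq promoters of 300 bases were at hand for 30 of the 37 members. CGGAAG lay in 20 of those 30 (66.7%), against 17.2% of the promoters of all 27025 genes in the table and 55.1% of those of mitochondrial ribosomal protein genes. AANATGGC lay in 5 of 30 (16.7%), against 6.23% of all genes and 30.4% of mitochondrial ribosomal protein genes (21 of 69). The pyrimidine run at the start was present in 7 of 30 (23.3%), against 7.84% of all genes, and the listed starts need not be the ones used in marrow. Only Rpl22l1 had TATAAA in the searched stretch, 3.33% of members against 3.09% of all genes. A match describes letters only and says nothing of binding.

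The values are log2 of the deposited intensities, and a gene's value is the median over its probe sets. Of the 37 members, 35 passed a filter on low values (mean above the 30th percentile of all genes, 6.0 on the log2 scale) that left 10586 genes. The 2 members below it were Rpl3l, the paralogue of Rpl3 made in striated muscle, at 4.69 to 6.10 over the arrays, and Rpl39l, the testis paralogue of Rpl39, at 2.94 to 4.05. For 24 members the mean lay above 11. Probes differ in brightness, so levels of different genes are not set against each other. The median level over all 37 members ranged from 11.17 to 11.89 over the 13 arrays, highest in replicate 2 of mCG-PR KLS at 6 weeks and lowest in replicate 2 of mCG-PR SLAM.

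Against the WT KLS mean, the median member stood at -0.39 in mCG-PR SLAM replicate 2, where 32 members lay below that mean. It stood at -0.07 in mCG-PR SLAM replicate 1, at -0.04 and 0.01 in the WT SLAM arrays, at -0.15, 0.14 and -0.02 in the KLS arrays of 6-week mCG-PR mice and at -0.08 and -0.03 in those of 13-week mice. The WT KLS arrays themselves stood at 0.00, -0.12, 0.07 and 0.04. Apart from 1 SLAM array, the members' median in each array therefore lay within 0.15 of the WT KLS mean. Within groups, the members' median SD was 0.18 among KLS arrays (0.22 for all tested genes) and 0.16 among SLAM arrays (0.33 for all tested genes). Rps14 varied least among the KLS arrays (SD 0.08) and Rps27l most (0.44). Among the SLAM arrays Rpl22 varied least (0.01) and Rpl22l1 most (0.89).

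**Figure D1:**
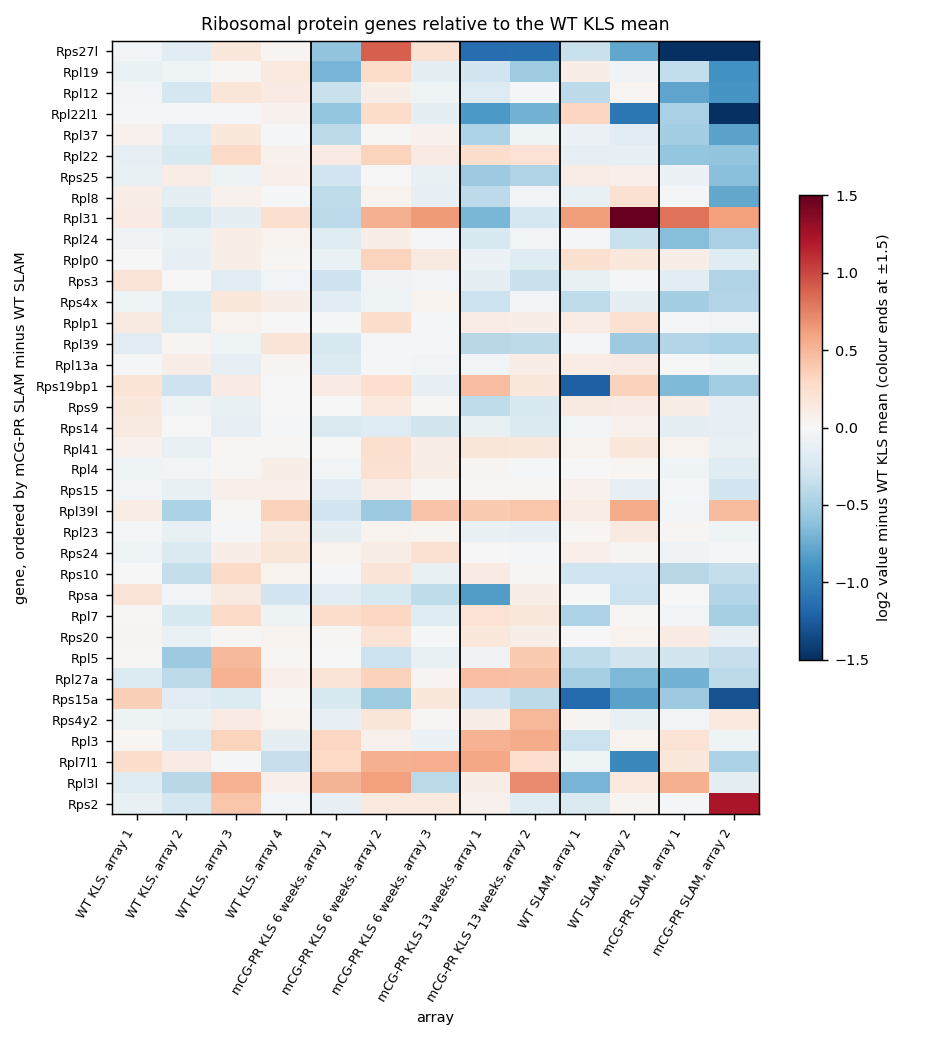
Each row is 1 of the 37 ribosomal protein genes and each column 1 array; colour gives the log2 value minus the mean of the 4 WT KLS arrays (blue lower, red higher, colour ends at ±1.5), and rows are ordered by the difference of mCG-PR SLAM from WT SLAM. Most cells are pale. Rps27l is bluest in both 13-week mCG-PR KLS arrays and both mCG-PR SLAM arrays, and paler blue in both WT SLAM arrays (8.48 and 8.93, WT KLS mean 9.26). Its 6-week mCG-PR KLS arrays run from blue (8.67) to red (10.16). Rpl31 is red in all 4 SLAM arrays, but its highest 6-week mCG-PR KLS value (8.62) lies above the lowest in WT SLAM (8.61). Replicate 2 of mCG-PR SLAM has 32 of its 35 tested members below the WT KLS mean.

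Some facts about the arrays bear on what follows. Cd48, the marker that SLAM sorts exclude, Flt3 and Cd34 separated the sorts, and the listed stem cell markers did so in part. The mean of Cd48 was 8.83 in WT KLS, 5.13 in WT SLAM and 4.25 in mCG-PR SLAM, while Kit lay at 9.57 to 10.40 and Ly6a at 8.85 to 9.49 over the groups. In the same order the means were 10.23, 7.56 and 8.43 for Flt3 and 10.40, 8.19 and 7.79 for Cd34. Flt3 was thus higher in mCG-PR SLAM than in WT SLAM, while Cd48 was lower. Slamf1, which codes for the SLAM receptor CD150, lay at 7.47 to 7.68 in WT SLAM but at 6.21 to 6.63 in mCG-PR SLAM, where it overlapped WT KLS (5.19 to 6.24). Procr in WT SLAM (7.00 to 8.80) overlapped WT KLS (6.43 to 7.55), and Hlf in WT SLAM (10.90 to 11.20) lay inside the WT KLS range (10.38 to 11.30). In mCG-PR SLAM Procr (8.33 to 9.69) lay above WT KLS, and Hlf (11.15 to 11.75) overlapped it. Evi1 in WT SLAM (9.36 to 9.51) lay above WT KLS (8.21 to 8.94), while in mCG-PR SLAM (8.48 to 9.61) it overlapped WT KLS. The means of all 4 stem cell markers were higher in WT SLAM than in WT KLS, and 1 of the 4 passed (limma). Arrays of a SLAM group resembled each other less than KLS arrays did, with correlations across the tested genes, which are no independent replicates, of 0.828 and 0.821 against 0.95 to 0.966. In WT SLAM replicate 2 the 6 neutrophil markers averaged 10.83, against 9.20 in replicate 1, 8.72 and 7.82 in the mCG-PR SLAM arrays and 8.50 to 9.37 in the KLS arrays. Markers of some other cell types were also highest in that array. The 4 B cell markers averaged 7.38, against 6.00 to 6.57 elsewhere, and the 4 erythroid markers 7.05, against 6.06 to 6.59. The 7 T and NK cell markers averaged 6.31, against 5.51 to 6.16. Others were not highest: monocyte and macrophage markers averaged 6.14 there, megakaryocyte markers 7.15 and stromal and endothelial markers 6.87. The highest averages of these elsewhere were 7.09, 7.23 and 7.04. The Y-linked gene Eif2s3y was low in both mCG-PR SLAM arrays (3.49 and 3.61) and in mCG-PR KLS replicate 3 at 6 weeks (4.18), against 7.78 to 9 in the other arrays, so in the SLAM comparison it coincided with genotype. Ctsg, Pml and Rara, parts of which make up the transgene, passed in no comparison between genotypes, and their probes were not placed relative to the fusion.

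The comparison of wild-type SLAM with wild-type KLS cells asks how the stem-cell-enriched sort differs from the broader progenitor sort. Of the 35 members, Rpl31, a large-subunit protein near the exit tunnel, rose and Rps15a, a small-subunit protein, fell, and the other members did not pass. Those 2 genes are 5.71% of the members, against 11.6% of all tested genes that passed at an adjusted p under 0.05 (limma, Benjamini-Hochberg over 10586 genes), of which 2.4% were higher and 9.21% lower in SLAM. At an unadjusted p under 0.05 the members gave 3 of 35 (8.6%), against 27.4% of all genes. The median member differed by -0.08 and the median of all genes by -0.05. Here and below, a difference of 1 on the log2 scale is a factor of 2, fewer cells of a type and less RNA per cell cannot be told apart in a sorted bulk sample, and an error after ± is a standard error unless it is named as an SD.

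Rps15a stood at 9.97, 9.44, 9.40 and 9.62 in the WT KLS arrays and at 8.44 and 8.80 in the WT SLAM arrays. Both SLAM values lay below all KLS values, and the fitted change was -0.99 ± 0.26 (adjusted p = 0.0254, limma). Rpl31 stood at 8.10, 7.75, 7.85 and 8.22 in WT KLS and at 8.61 and 9.59 in WT SLAM. Here both SLAM values lay above all KLS values, with replicate 2 nearly 1 unit above replicate 1, and the change was 1.12 ± 0.31 (adjusted p = 0.0352, limma). Of all tested genes, 22.3% had both SLAM values below all KLS values and 12.9% had both above. Among the members it was 8.6% in each direction. Both calls were lost when limma weighted the arrays by the spread of their sorted population, with adjusted p = 0.121 for Rps15a and 0.153 for Rpl31, a setting under which 0 members and 3.12% of all genes passed. Without WT SLAM replicate 2, the array with the high neutrophil, B cell and erythroid markers, the Rpl31 change was 0.63 (adjusted p = 0.275, limma), and without WT KLS replicate 1 neither gene passed (adjusted p = 0.0667 for Rps15a and 0.0637 for Rpl31, limma). Rps15a also missed the threshold without WT SLAM replicate 1 (adjusted p = 0.124) or WT KLS replicate 4 (0.0528), and Rpl31 without WT KLS replicate 2 (0.0753) or 3 (0.0779), all with limma. The part of RNA from these other cell types in the differences was not tested. Other members passed when the treatment of the data was changed: Rpl27a (-0.86, adjusted p = 0.0138) and Rps4x (-0.50, adjusted p = 0.0165) with the mean over probe sets, Rpl7l1 (-0.97, adjusted p = 0.0427) without WT SLAM replicate 1 and Rps19bp1 (-1.22, adjusted p = 0.00835) without WT SLAM replicate 2 (all limma).

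The probe sets of both genes differed among themselves. For Rps15a the 3 probe sets changed by -0.32, -0.99 and -0.05 in order of rising brightness, so the gene's value rested on the middle one and the brightest was nearly the same in both sorts. For Rpl31 the 4 changed by 1.08, 1.58, 0.65 and 0.09 in the same order, and again the brightest differed least. With the mean over probe sets in place of the median, Rps15a differed by -0.45 (adjusted p = 0.0828, limma) and Rpl31 by 0.85 (adjusted p = 0.0253, limma). Ribosomal protein genes have many near-identical processed pseudogenes, and whether single probe sets also read those was not tested.

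Among the members that did not pass, the smallest p-values on the lower side belonged to Rpl27a (-0.58 ± 0.23), Rpl7l1 (-0.51 ± 0.27), Rps27l (-0.55 ± 0.30) and Rps10 (-0.30 ± 0.19), with adjusted p between 0.120 and 0.329 (limma). On the higher side they belonged to Rplp0 (0.19 ± 0.17), Rplp1 (0.17 ± 0.16), Rps9 (0.13 ± 0.16) and Rpl13a (0.11 ± 0.15). The differences of Rpsa (-0.16), Rps14 (0.02), Rps4x (-0.26), Rpl5 (-0.33), Rpl3 (-0.13), Rpl7 (-0.23), Rpl22 (-0.12), Rpl22l1 (-0.38) and Rpl39 (-0.28) did not pass either. For 28 of the 35 members the 95% interval of the difference lay within 1 unit of 0.

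**Figure D2:**
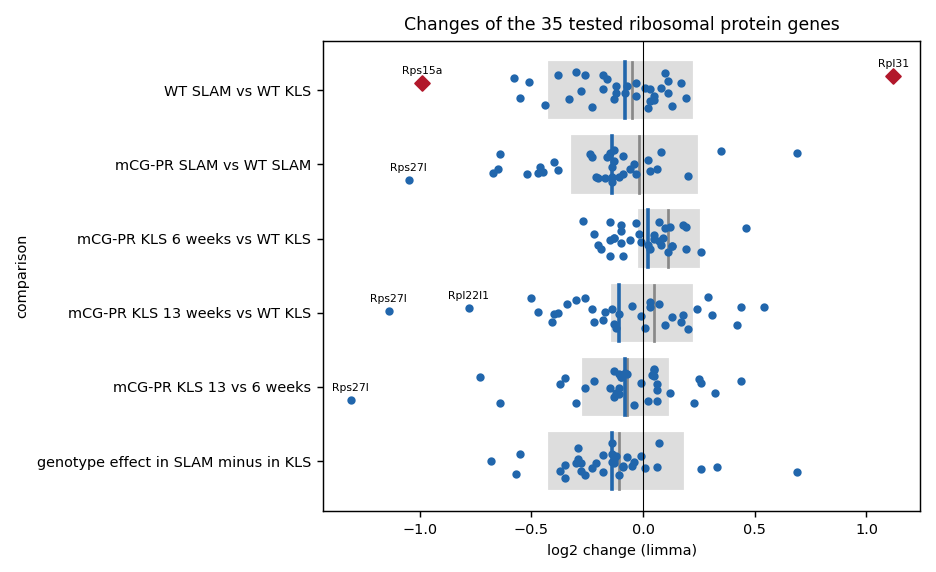
Log2 changes fitted by limma for the 35 tested ribosomal protein genes (points; red diamonds passed at an adjusted p under 0.05) in 6 comparisons, with the members' median (blue line) and the median and middle range from the 25th to the 75th percentile of all 10586 tested genes (grey line and box). Passing genes appear in the WT SLAM comparison only (Rps15a at -0.99 and Rpl31 at 1.12), and Rps27l is the lowest point in 3 rows.

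Other genes of the ribosome's supply line were compared in the same contrast, from lists drawn up with earlier results of these data known. The share of all tested genes that fell here, 9.21%, is the background for the counts that follow. Of 57 genes for ribosome biogenesis, 0 rose and 11 fell (19.3%), with a median of -0.29. The helicase Ddx21, which acts on nucleolar RNA, fell by 1.51 on the log2 scale and the nucleolar GTPase Gnl3 (nucleostemin) fell by 1.15 (adjusted p = 0.00077 and 0.00113, limma). Of 12 genes for RNA polymerase I, which transcribes ribosomal RNA, 3 fell (25%), among them its upstream binding factor Ubtf (-0.74 ± 0.16, adjusted p = 0.0123, limma). Of 35 translation factors 4 fell (11.4%, near the background), led by the initiation factor subunit Eif3a (-1.06 ± 0.18, adjusted p = 0.00267, limma). Of 67 genes for mitochondrial ribosomal proteins 1 rose and 4 fell (5.97%, below the background). Of 15 genes of the mTORC1 pathway 2 fell (13.3%), Rheb (-1.75 ± 0.20) and Rps6kb1 (-1.04 ± 0.25), the activating GTPase and the S6 kinase. Of 18 mitotic genes 9 fell (50%), with a median of -1.16. Under the weighted fit 5 of the biogenesis genes, 1 translation factor, 1 mTORC1 gene and 0 of the RNA polymerase I, mitochondrial and mitotic genes passed. No difference between these lists and the cytosolic ribosomal protein genes was tested.

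Within the SLAM sort, mCG-PR cells at 7 weeks were compared with wild-type cells at 6 weeks to ask what the transgene does in this population. No member passed (limma, 0 of 35, against 2.6% of all tested genes), and 0 members passed with weighted arrays, a setting under which 0.0283% of all genes did. At an unadjusted p under 0.05 the members gave 6 of 35 (17.1%), against 18.1% of all genes. The members nonetheless sat low as a group: 28 of 35 (80%) were lower in mCG-PR cells, against 52.3% of all genes, with a median of -0.14 against -0.02. In 19 members (54.3%) both mCG-PR values lay below both wild-type values, against 18.8% of all tested genes. The 2 mCG-PR arrays were unequal in this: relative to all genes, the members' median against WT KLS stood at 0.01 in replicate 1 and at -0.31 in replicate 2. Without replicate 2 the members' median difference from WT SLAM was -0.11, with 27 of 35 lower, and without replicate 1 it was -0.22, with 30 lower. Over the single probe sets, 215 of 266 (80.8%) were lower, with a median of -0.21.

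These counts moved with the scaling of the arrays, and other bright genes also sat low. The 90 other tested genes with a mean above 11 had a median of -0.24, and 87.8% of them were lower. Of the 24 members with a mean above 11, 95.8% were lower, with a median of -0.17. Both mCG-PR values lay below both wild-type values in 75% of these members and in 46.7% of the 90 other genes. Quantile normalisation made these shares 12.5% and 18.9%. After quantile normalisation 16 of 35 members (45.7%) were lower, the median was 0.03, and 4 (11.4%) had both mCG-PR values below both wild-type values, against 16.6% of all genes. After subtraction of each array's median, 28 of 35 were lower and the median stayed at -0.14. The direction for the group thus turned under quantile normalisation. Mouse-level facts given above run with the genotype here (Eif2s3y, neutrophil markers), and their part was not tested.

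**Figure D3:**
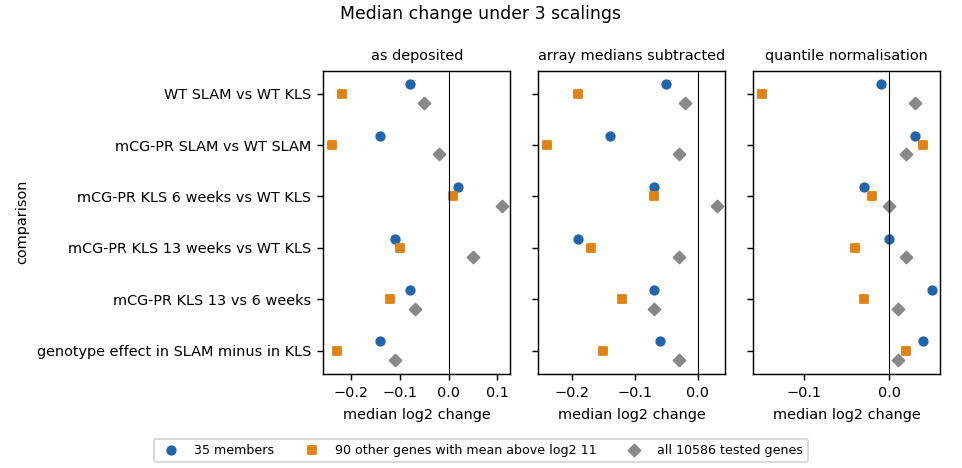
Median log2 change of the 35 members (blue circles), of the 90 other tested genes with a mean above 11 on the log2 scale (orange squares) and of all 10586 tested genes (grey diamonds) in each comparison, with the values as deposited, after subtraction of array medians and after quantile normalisation; each panel has its own horizontal scale. In mCG-PR SLAM against WT SLAM the members lie at -0.14, -0.14 and 0.03.

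By role, the lowest values belonged to a mixed set. Rps27l, a paralogue of Rps27 known as a target of p53, stood at 8.93 and 8.48 in WT SLAM and at 7.68 and 7.64 in mCG-PR SLAM. The groups did not overlap, and the difference was -1.05 ± 0.35 (adjusted p = 0.126, limma). Of its 6 probe sets, none was higher in mCG-PR cells, with differences from -1.82 to 0.00. Rpl12, a large-subunit protein at the base of the stalk, stood at 11.31 and 11.73 against 10.91 and 10.81, a difference of -0.65 ± 0.22 (adjusted p = 0.137, limma). That difference was as large as the most negative one among its 13 probe sets, of which 12 were lower. With the mean over probe sets the difference was -0.18. Rpl22, a large-subunit protein needed for T cell development and known to repress its paralogue Rpl22l1, stood at 11.64 in both WT SLAM arrays and at 11.18 and 11.17 in mCG-PR SLAM. Its replicates agreed within 0.01, the 6 probe sets differed by -0.94 to -0.35, and the difference was -0.47 ± 0.20 (adjusted p = 0.244, limma). After quantile normalisation the difference of Rpl22 was -0.12.

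Rpl22l1 was spread widely, at 10.51 and 9.10 in WT SLAM and at 9.70 and 8.63 in mCG-PR SLAM, and the groups overlapped (-0.64 ± 0.42). With the mean over probe sets it was the sole member to pass in this comparison (-1.5, adjusted p = 0.0404, limma). Rpl19 (-0.67 ± 0.28) and Rpl37 (-0.52 ± 0.23), both of the large subunit, completed the 5 lowest p-values. On the higher side stood Rps2 (0.69 ± 0.34), Rpl7l1 (0.35 ± 0.31), Rpl3 (0.20 ± 0.23), Rps4y2, now named Rps4l (0.08 ± 0.20), and Rps15a (0.06 ± 0.30). Rps2, a small-subunit protein, stood at 8.34 and 8.60 in WT SLAM and at 8.53 and 9.78 in mCG-PR SLAM, so its difference rested on replicate 2. Without mCG-PR SLAM replicate 1 it was 1.31 (adjusted p = 0.025, limma), and without replicate 2 it was 0.06. The stalk proteins Rplp0 (-0.23) and Rplp1 (-0.20), and Rpsa (-0.06), Rps14 (-0.14), Rps4x (-0.21), Rpl5 (0.02), Rpl7 (-0.04) and Rpl39 (-0.17) did not pass. For 26 of 35 members the 95% interval lay within 1 unit of 0, so a change by a factor of 2 was not kept out for the remaining members.

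The 16 matching symbols with 1 or 2 probe sets were fitted with 10963 genes. Rps27, the small-subunit paralogue of Rps27l, was the sole one to pass in any of the 6 comparisons. In mCG-PR SLAM against WT SLAM it differed by -1.01 ± 0.25 (adjusted p = 0.0485, limma, 2 probe sets). In the main fit of 10586 genes 2.6% passed in this comparison, and 0.0283% with weighted arrays. The shares for the 10963 genes and a weighted value for Rps27 are not given here. Rps19, the gene most often hit in Diamond-Blackfan anaemia, differed by -0.14 ± 0.24 there, and Rpl10a by 0.08 ± 0.32. Of the related lists in this comparison, for which 2.6% of all tested genes is the background, 0 of 57 biogenesis genes passed, 1 of 12 RNA polymerase I genes (Znrd1) and 3 of 67 mitochondrial ribosomal protein genes fell, and 1 of 35 translation factors rose (Eif4h, 1.12 ± 0.24, adjusted p = 0.0279, limma). The mitochondrial list had a median of -0.37, with Mrps18c (-1.41 ± 0.26), Mrpl51 (-1.59 ± 0.30) and Mrps24 (-1.22 ± 0.24) passing. Of 14 p53 targets 2 fell, Plk2 (-1.55 ± 0.33) and Trp53inp1 (-1.21 ± 0.30), of 8 genes of the Myc network 1 fell, Max, the partner of Myc (-0.92 ± 0.22), and of 15 mTORC1 genes and 18 mitotic genes 0 passed. In the weighted fit 0 genes of these lists passed.

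**Figure D4:**
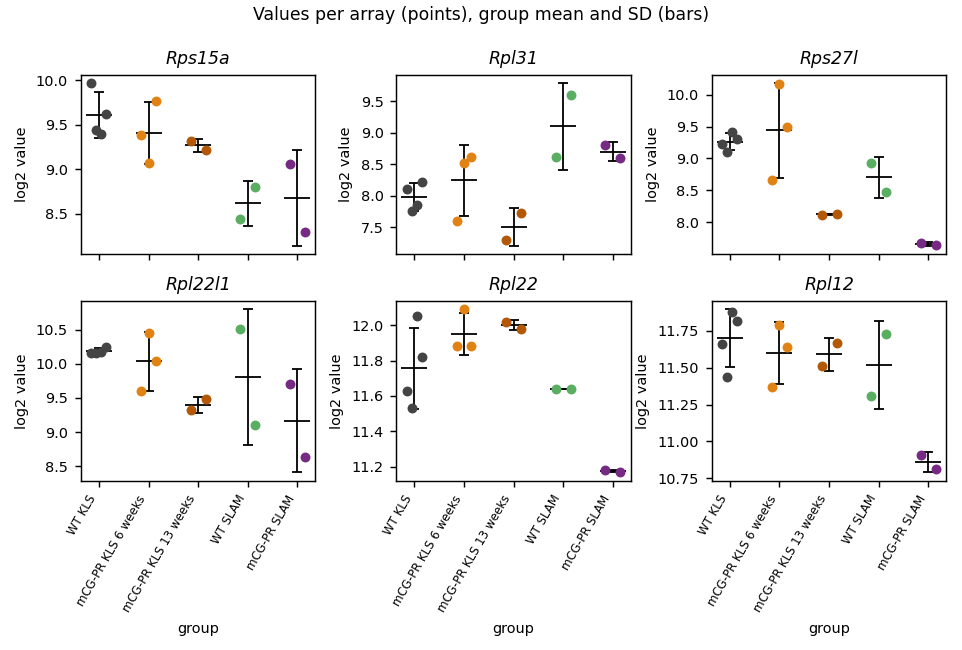
Log2 values of 6 ribosomal protein genes in each array (points), with group means and SD (bars; 4, 3, 2, 2 and 2 arrays from left to right); the vertical axes differ between panels and do not start at 0. Rps27l is at 8.12 and 8.13 in mCG-PR KLS at 13 weeks, below the 9.10 to 9.42 of WT KLS, while Rpl22 in mCG-PR SLAM (11.18 and 11.17) lies below every other array.

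In the KLS sort at 6 weeks, mCG-PR cells gave the flattest comparison. No member passed, against 0.00945% (1 gene) of all tested genes (limma), and 0 members passed with weighted arrays, against 0.113% of all genes. At an unadjusted p under 0.05 there were 0 members, against 6.65% of all genes. Higher and lower values were 18 and 17, with a median of 0.02 against 0.11 for all genes, and after subtraction of array medians 23 of 35 (65.7%) were lower. That step left 43.7% of all genes and 71.1% of the 90 other tested genes with a mean above 11 lower. All 35 members had a 95% interval within 1 unit of 0. The lowest p on the higher side was that of Rpl7l1, a paralogue of Rpl7 that takes part in assembly of the large subunit, at 7.93, 7.79, 7.64 and 7.32 in WT KLS and 7.97, 8.20 and 8.22 in mCG-PR KLS. The groups did not overlap, and the difference was 0.46 ± 0.24 (adjusted p = 0.777, limma). Rpl22 (0.19), Rpl27a (0.19), Rpl31 (0.26) and Rps24 (0.12) followed.

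On the lower side the first was Rps14, the small-subunit gene of the 5q- syndrome, at 13.15, 13.03, 12.90 and 13.00 in WT KLS and 12.80, 12.83 and 12.75 in mCG-PR KLS. These groups did not overlap either, with a difference of -0.22 ± 0.13 (adjusted p = 0.797, limma). Of all tested genes, 9.4% lay above and 1.5% below all wild-type values in this comparison, and of the members 2.9% in each direction. Rpsa (-0.27), Rpl19 (-0.19), Rps15a (-0.20) and Rps3 (-0.13) came next, and Rplp0 (0.13), Rplp1 (0.07), Rpl5 (-0.15), Rps4x (-0.06), Rpl3 (0.10), Rpl7 (0.13), Rpl22l1 (-0.15), Rpl39 (-0.10) and Rps27l (0.18) did not pass. The median differences of the related lists were 0.17 for biogenesis, 0.16 for RNA polymerase I, 0.13 for translation factors, 0.20 for mitochondrial ribosomal proteins and 0.71 for mitotic genes. No gene of these lists passed.

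At 13 weeks mCG-PR KLS cells were set against wild-type KLS cells of 12 and 13 weeks. No member passed and no gene of all 10586 did (0%, limma, also with weighted arrays). At an unadjusted p under 0.05 the members gave 5 of 35 (14.3%), against 7.39% of all genes. Of the members 20 were lower and 15 higher, with a median of -0.11 against 0.05 for all genes, and in 8 (22.9%) both mCG-PR values lay below all wild-type values, against 10.2% of all genes. Other bright genes also sat low: of the 90 other tested genes with a mean above 11, 68.9% were lower, with a median of -0.1. In 26.7% of them both values lay below all wild-type values. Among the 24 members with such a mean these shares were 58.3% and 16.7%. After subtraction of array medians 24 (68.6%) were lower and 13 (37.1%) lay below all wild-type values, against 15.9% of all genes and 38.9% of those 90. After quantile normalisation 17 (48.6%) were lower, with a median of 0, and 7 (20%) lay below all wild-type values, against 12% of all genes and 18.9% of those 90.

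The largest difference was that of Rps27l, at 9.22, 9.10, 9.42 and 9.30 in WT KLS and at 8.12 and 8.13 in mCG-PR KLS at 13 weeks. Both values lay about 1 unit below the lowest wild-type value, and the difference was -1.14 ± 0.30 (unadjusted p = 0.00231, adjusted p = 0.547, limma over all genes). Its 6 probe sets were all lower, from -1.66 to -0.16. Fitted with only the 2 groups compared, it passed (adjusted p = 0.0253, limma), as 1 of 12 genes (0.113% of all tested genes) that did so in that fit. Rpl22l1 was at 10.16, 10.16, 10.17 and 10.25 in WT KLS and at 9.32 and 9.48 here, again without overlap (-0.78 ± 0.36, adjusted p = 0.674, limma). The 6 probe sets of Rpl22l1 differed unequally: the 2 dimmest by -2.80 and -2.40, the 2 brightest by -0.06 and -0.01. Its paralogue Rpl22 stood at 12.02 and 11.98, inside the range of WT KLS (11.53 to 12.05).

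Rps25, a small-subunit protein used in initiation at internal entry sites, was at 11.54 and 11.64 against 11.98 to 12.20 in WT KLS (-0.50 ± 0.18). Rpl3, which lies near the peptidyl transferase centre, was at 12.05 and 12.09 against 11.32 to 11.86 (0.54 ± 0.20). Each of these groups stood clear of WT KLS, and neither gene passed (adjusted p = 0.619 for both, limma). Of the probe sets, 8 of 11 for Rps25 and 3 of 4 for Rpl3 had the sign of the gene. With the mean over probe sets the differences were -0.17 for Rps25 and 0.34 for Rpl3. Rpl39 (-0.40 ± 0.18) and Rps9 (-0.30 ± 0.16) were the next on the lower side, and Rpl27a (0.44 ± 0.23), Rps4y2 (0.29 ± 0.18), Rpl7l1 (0.42 ± 0.27) and Rpl22 (0.24 ± 0.18) on the higher side. Rpsa (-0.38), Rplp0 (-0.13), Rplp1 (0.10), Rps14 (-0.17), Rps4x (-0.18), Rpl5 (0.17) and Rpl7 (0.20) did not pass. Rpsa rested on replicate 1, at 10.29 against 11.21 in replicate 2. In the lists for biogenesis, RNA polymerase I, translation factors, mitochondrial ribosomal proteins and mitosis 0 genes passed, with medians of -0.02, -0.03, 0.05, 0.08 and 0.56.

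**Figure D5:**
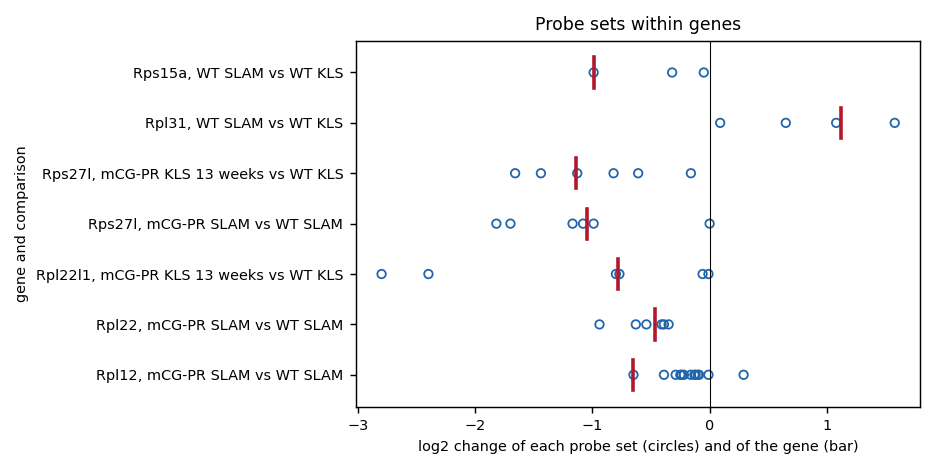
Log2 change of each probe set (open circles) and of the gene's median value (red bar) for 7 pairs of gene and comparison. The 4 probe sets of Rpl31 all lie above 0 and those of Rps15a and Rpl22 all lie below 0, while those of Rpl22l1 spread from -2.80 to -0.01.

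Within mCG-PR KLS cells, 13 weeks were compared with 6 weeks, a contrast that shares its arrays with the 2 comparisons above. No member passed and no gene of all tested did (0%, limma). With weighted arrays 0 members and 0.00945% of all genes passed, and at an unadjusted p under 0.05 there were 2 members (5.7%), against 6.32% of all genes. Of the members 21 (60%) were lower at 13 weeks, against 60.2% of all genes, with medians of -0.08 and -0.07, and after quantile normalisation 13 (37.1%) were lower. Rps27l was at 8.67, 10.16 and 9.49 at 6 weeks and at 8.12 and 8.13 at 13 weeks. The 6-week values spread over more than 1 unit but stayed above both 13-week values (-1.31 ± 0.32, unadjusted p = 0.00116, adjusted p = 0.696, limma). All 6 probe sets were lower, from -2.92 to -0.34. Of all tested genes, 20.1% had both 13-week values below all 6-week values. Rpl31 (-0.73 ± 0.33), Rps9 (-0.35 ± 0.17), Rps25 (-0.37 ± 0.19) and Rpl22l1 (-0.64 ± 0.38) followed on the lower side, and Rpl3 (0.44 ± 0.21), Rps4y2 (0.26 ± 0.19), Rpl5 (0.32 ± 0.26), Rpl27a (0.25 ± 0.24) and Rpl13a (0.12 ± 0.16) on the higher. Rpsa (-0.11), Rplp0 (-0.26), Rplp1 (0.02), Rps14 (0.06), Rps4x (-0.12), Rpl7 (0.06), Rpl7l1 (-0.04), Rpl22 (0.05) and Rpl39 (-0.30) did not pass.

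The last contrast asked whether the genotype difference was the same in both sorts, as the difference in SLAM minus the mean of the 2 differences in KLS. The KLS part sets mCG-PR mice of 6 and 13 weeks against wild types of 12 and 13 weeks, and the SLAM part 7 against 6 weeks. Eif2s3y coincided with genotype in SLAM only. Age and this Y-linked difference are thus mixed into the contrast and cannot be told apart from genotype in it. No member passed, against 0.85% of all tested genes (limma), and 0 members and 0% of all genes passed with weighted arrays. At an unadjusted p under 0.05 there was 1 member (2.9%), against 15.1% of all genes. Of the members 29 (82.9%) were below 0, against 60.4% of all genes, with a median of -0.14 against -0.11. Of the 90 other tested genes with a mean above 11, 76.7% were below 0, with a median of -0.23. Among the 24 members with such a mean it was 91.7%, with a median of -0.14. After subtraction of array medians 71.4% were below 0, and after quantile normalisation 34.3% were, with a median of 0.04. The lowest p was that of Rpl22, which in KLS was at 11.53 to 12.05 in wild type, at 11.88, 12.09 and 11.88 in mCG-PR mice of 6 weeks and at 12.02 and 11.98 at 13 weeks. Its genotype difference was thus 0.19 and 0.24 in KLS and -0.47 in SLAM, and the contrast was -0.68 ± 0.24 (adjusted p = 0.205, limma). After quantile normalisation the contrast of Rpl22 was -0.39.

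Rpl12 (-0.55 ± 0.27), Rps27l (-0.57 ± 0.42), Rpl41 (-0.28 ± 0.22) and Rpl37 (-0.35 ± 0.27) came next on the lower side, and Rps2 (0.69 ± 0.41), Rps15a (0.33 ± 0.36), Rpsa (0.26 ± 0.34), Rpl39 (0.07 ± 0.25) and Rps14 (0.06 ± 0.21) on the higher. Rplp0 (-0.23), Rplp1 (-0.28), Rps4x (-0.09), Rpl5 (0.01), Rpl3 (-0.11), Rpl7 (-0.21), Rpl7l1 (-0.09) and Rpl22l1 (-0.18) did not pass. The 95% interval lay within 1 unit of 0 for 25 of 35 members. In this contrast 2 of 67 mitochondrial ribosomal protein genes fell, Mrps24 (-1.46 ± 0.29) and Mrpl51 (-1.72 ± 0.36), with a list median of -0.49, and 0 of 57 biogenesis genes, 0 of 12 RNA polymerase I genes and 0 of 35 translation factors passed. Of 14 p53 targets Plk2 alone passed (-2.31 ± 0.40, adjusted p = 0.029, limma). With weighted arrays 0 genes of these lists passed.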

How the data were processed

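The deposited table holds linear intensity values for 229581 probe sets on 13 arrays (Mouse Exon 1.0 ST). Per the submitters' processing notes RMA was used with mm9; its settings are not stated in these sources. Array medians lay between 98.6 and 115.3. Log2 was taken, the median of the probe sets assigned to exactly 1 gene gave the gene value, and genes with at least 3 such probe sets were kept. limma 3.58.1 (R 4.3.3; lmFit, contrasts.fit and eBayes) fitted all 5 groups together, two-sided, with Benjamini-Hochberg adjustment over 10586 genes in each of 6 comparisons. The code was tested on simulated data. Sequences are from RefSeq tables of GRCm38.p6.

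Members and lists were chosen with earlier results of these data known. In each comparison the members named are those that passed (up to 10 per direction) and, where fewer than 5 passed, the 5 with the smallest p per direction; fixed in addition were Rpsa, Rplp0, Rplp1, Rps14, Rpl5, Rps4x and paralogue pairs. Up to 4 genes of a list with the smallest p were named. Alternatives were array weights, scaling, filters, probe set means, fewer groups, replicate block and leaving out arrays; 2 more (fewer probe sets per gene, members without paralogues) were chosen after seeing the data.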

Additional observations from a re-analysis of the deposited data

Results flagged for a closer look

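Among the 37 members, 1 had a WT KLS array that stood far from the others of its group: Rpl22l1 in replicate 4 was at 10.25, while replicates 1 to 3 lay at 10.16 to 10.17. The gap made up 0.919 of the whole range, above Dixon's 95% limit for 4 samples. Chance gives such a value in about 1 of 20 groups, and the 4 arrays differ by less than 0.1 in all.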

How the results depend on the processing

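In WT SLAM against WT KLS the 2 members that passed became 0 with array weights by sorted population, 0 with the replicate block, 0 with WT KLS replicates 3 and 4 only, 1 without a filter, 1 after quantile normalisation, and 0 to 2 when single arrays were left out; all genes called were 330, 410 and 439 in the first 3 of these, against 1229. Leaving out WT KLS replicate 1 gave 0, and replicates 2, 3 or 4 gave 1 each. With the mean of probe sets 3 passed (Rpl31, Rpl27a and Rps4x), and the 2 without WT SLAM replicate 1 were Rpl31 and Rpl7l1, those without replicate 2 Rps15a and Rps19bp1. In mCG-PR SLAM against WT SLAM the count of 0 became 1 with the mean of probe sets (Rpl22l1), 1 with 1 or more probe sets (Rps27) and 0 to 1 when single arrays were left out (Rps2); array weights left 3 genes of 275. At 13 weeks against WT KLS the count of 0 became 1 (Rps27l, of 12 genes called) with only the groups compared. Quantile normalisation moved the median to 0.03 in mCG-PR SLAM against WT SLAM, to 0.05 in 13 against 6 weeks and to 0.04 in the contrast between sorts; the causes were not tested. Same-numbered arrays correlated at -0.07 to 0.08 over 21 pairs after group means were removed, so the numbers pair nothing; with the replicate block Rpl31 changed by 1.28 (adjusted p = 0.0682) and Rps15a by -0.94 (adjusted p = 0.109, limma). Without 1 array a group of 2 holds 1, which is assumed to vary like the rest. The other alternatives changed no count of members that passed by over 1.5 times, while subtraction of array medians moved the members below all WT KLS values at 13 weeks from 8 to 13. In WT SLAM against WT KLS Rpl31 stayed above 0 (0.63 to 1.61) and Rps15a below 0 (-1.17 to -0.45) over all settings run; in some other comparisons, where neither passed, their signs varied.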
